A study of Mus musculus with 14 samples.

Results

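The 38 genes described here are genes enriched in resting, homeostatic astrocytes, chosen by name from the deposited table of 55450 genes. Their values were not the rule of choice, but earlier results of these data were known when they were chosen. All 38 passed the filter on low values, as did 18059 genes in all. The filter asked for 0.5 or more in 3 or more of the 14 libraries, in FPKM, a unit that divides the fragments of a gene by transcript length and library size. Hippocampal poly(A) RNA was sequenced from 10-week-old female mice on the C57BL/6J background, in 3 Δ3102, 4 AG-KO, 4 NG-KO and 3 WT mice, with 1 library per replicate. Δ3102 mice are global GPR30 knockouts made with CRISPR/Cas9. AG-KO mice are GPR30 fl/fl;GFAP-Cre mice, in which a GFAP promoter drives Cre in astrocytes, and NG-KO mice are GPR30 fl/fl;NSE-Cre mice, in which a neuron-specific enolase promoter drives it in neurons. WT mice were the only controls, so a Cre transgene or the floxed allele cannot be told apart from the loss of GPR30 in the conditional lines, and the 3 comparisons with WT share the same 3 control libraries. The gene for GPR30, an estrogen receptor of the cell membrane, is Gper1.

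Astrocytes take up the glutamate and GABA that neurons release, convert glutamate to glutamine, and buffer the potassium and water that move with neuronal activity. They are joined by gap junctions into a network, supply lipids, lactate and thyroid hormone to their neighbours, bind zinc and copper, and secrete carrier and matrix proteins. Together these genes make up the resting program of the cell, in contrast to the genes that astrocytes turn on when they become reactive.

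The libraries held 44527024 to 62669865 counts, and the 38 genes had between 252 and 146869 counts per gene and library. Gper1 itself ranged over 0.0124 to 0.145 FPKM among Δ3102 mice, 0.540 to 1.38 FPKM among AG-KO mice, 0.975 to 1.41 FPKM among NG-KO mice and 0.797 to 3.05 FPKM among WT mice, so Δ3102 mice lay below the rest and the conditional knockouts overlapped with WT mice. Markers of some other cells varied widely between mice. The summed FPKM of 8 oligodendrocyte markers was 353.4 to 433.5 in Δ3102 mice, 405 to 749.7 in AG-KO mice, 254.8 to 374.9 in NG-KO mice and 404.8 to 928.9 in WT mice. The hepatocyte transcript Alb ranged from below detection (the deposited floor of 0.0001 FPKM in AG-KO replicates 3 and 4) to 189 FPKM in a Δ3102 mouse. In RNA from whole tissue, fewer cells of a type and less RNA per cell cannot be told apart.

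The 38 genes were abundant transcripts of the hippocampus. Their median level in WT mice was 24.8 FPKM, against 3.65 FPKM for all tested genes, and 37 of 38 lay above that second value. Sparcl1, which encodes a secreted matrix protein that promotes synapse formation, was the highest, at 692, 630 and 789 FPKM in the 3 WT mice. Glul, the glutamine synthetase that turns glutamate into glutamine, followed with 501, 443 and 488 FPKM, and Mt3, a brain metallothionein, with 307, 299 and 286 FPKM. The order of these 3 was the same in each WT mouse. Altogether 8 genes stood at 100 FPKM or more (also Clu, Aldoc, Mt2, Slc1a2 and Mt1), 22 between 10 and 100 FPKM, and 8 under 10 FPKM. The lowest was Slc7a11, the cystine-glutamate exchanger, with 1.65, 1.64 and 2.07 FPKM. Entpd2, an ectonucleotidase, had 3.61, 3.04 and 4.51 FPKM and Cbs, which starts the conversion of homocysteine to cysteine, 4.27, 3.26 and 4.36 FPKM, so these 2 neighbours overlapped. Within genotypes, the SD of log2(FPKM + 0.1) between mice of a genotype had a median of 0.18 over the 38 genes, against 0.28 over all tested genes. It ran from 0.05 for Gja1 to 0.46 for Mt2. The tested genes mostly had lower levels than the 38, and genes of similar level were not compared.

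Most of the 38 genes lay close to their WT level in each knockout. With edgeR's quasi-likelihood test and Benjamini-Hochberg adjustment over all 18059 tested genes, no member was called in Δ3102, AG-KO or NG-KO mice against WT mice, and 1 gene, Kcnj10, was called between AG-KO and NG-KO mice. DESeq2 called 0 members in Δ3102 mice, 2 in AG-KO mice (Acsbg1 and Kcnj10) and 0 in NG-KO mice against WT mice, and 4 between AG-KO and NG-KO mice (Aqp4, Agt, Acsbg1 and Kcnj10). No share of all tested genes was counted for DESeq2, so the edgeR shares that follow are not a background for its counts. Few genes of any kind passed the edgeR test: the share of all tested genes called higher and lower was 0.00554% and 0.00554% for Δ3102, 0.0111% and 0.0111% for AG-KO and 0.0332% and 0.0388% for NG-KO against WT mice, and 0.0664% and 0.0443% in AG-KO against NG-KO mice. The median log2 fold change of the 38 genes was 0.02 for Δ3102, 0.05 for AG-KO and −0.01 for NG-KO against WT mice, and 0.10 in AG-KO against NG-KO mice. Over all tested genes these medians were −0.0037, −0.014, −0.016 and −0.0093 in the same order of comparisons. Between 30 and 36 of the 38 fold changes lay within 0.3 log2 units of 0, namely 36 in Δ3102, 33 in AG-KO and 35 in NG-KO mice against WT mice and 30 in AG-KO against NG-KO mice. The shares of all tested genes within that distance were 69.8%, 62.4%, 66.9% and 64.0% in the same order, but these genes mostly had lower levels than the 38. For 37 or 38 of the 38 genes in each comparison, the 95% confidence interval of the fold change stayed within a 2-fold change in either direction.

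**Figure D1:**
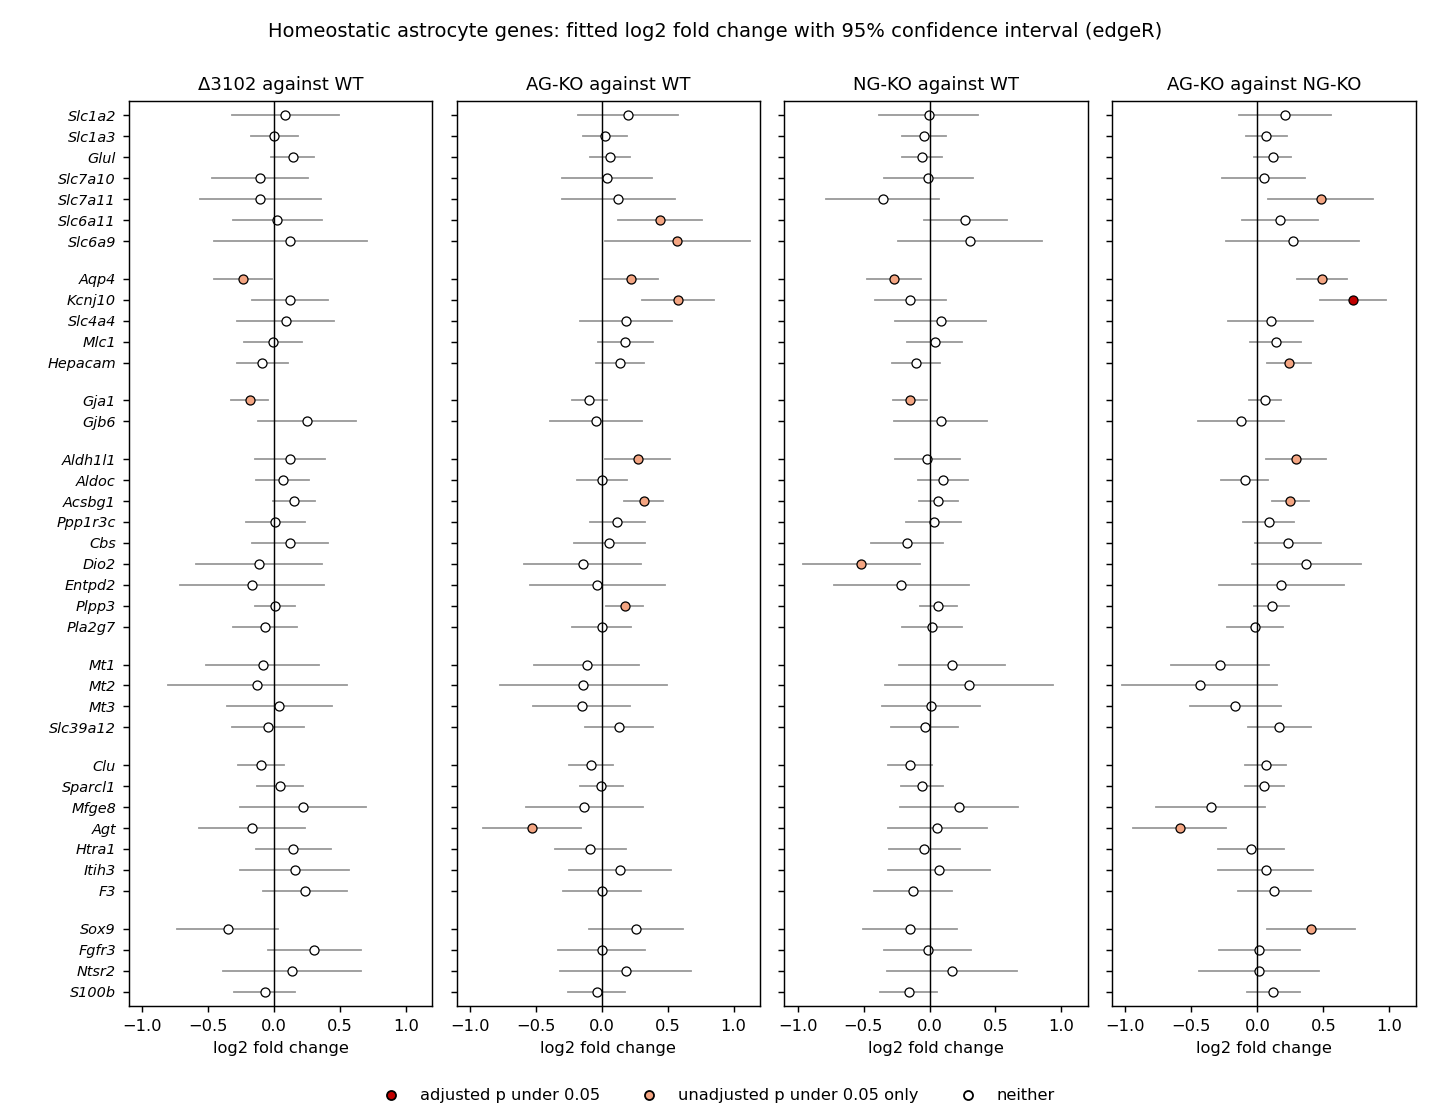
Fitted log2 fold change (x axis, edgeR) of each of the 38 genes (rows, grouped by role from glutamate transport at the top to identity genes at the bottom) in the 4 comparisons, with 95% confidence intervals as lines and the fill of the point giving the test. Most points lie within 0.3 of 0, Kcnj10 at 0.72 in AG-KO against NG-KO mice is the only gene past the adjusted threshold, and Agt at −0.59 and Dio2 at −0.52 are among the lowest.

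At an unadjusted p under 0.05 in edgeR, a description with many tests behind it, most of the members counted were higher in AG-KO mice. In Δ3102 mice 0 members were higher and 2 lower (Aqp4 and Gja1) than in WT mice, where 2.18% and 2.27% of all tested genes were. In AG-KO mice 7 were higher (Slc6a11, Slc6a9, Aqp4, Kcnj10, Aldh1l1, Acsbg1 and Plpp3) and 1 lower (Agt) than in WT mice, where 6.65% and 7.74% of all tested genes were. The 7 genes are 18.4% of the 38. In NG-KO mice 0 were higher and 3 lower (Aqp4, Gja1 and Dio2), where 4.33% and 4.83% of all tested genes were. Between AG-KO and NG-KO mice 7 were higher in AG-KO mice (Slc7a11, Aqp4, Kcnj10, Hepacam, Aldh1l1, Acsbg1 and Sox9) and 1 lower (Agt), where 7.3% and 6.84% of all tested genes were. The tested genes had lower levels and a wider spread between mice by median than the 38. Genes of similar level were not compared, so these shares are not a matched background. AG-KO replicates 3 and 4 were also left out together, a choice made after seeing the data. That fit gave 7 members at this p in AG-KO against WT mice, 8 in AG-KO against NG-KO mice and 5 in Δ3102 against WT mice. They need not be the members listed above: the log2 fold change of Aqp4 in AG-KO against WT mice went from 0.22 to 0.14. The shares of all tested genes in that fit were not counted, so these 3 counts have no background.

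Members were also counted by whether the groups overlap at all. Between Δ3102 and WT mice 3 members were higher in every Δ3102 mouse (Glul, Acsbg1 and F3) and 1 lower (Gja1). These are 7.9% and 2.6% of the 38, against 5.4% and 6.13% of all tested genes. Between AG-KO and WT mice 2 were higher (Kcnj10 and Acsbg1) and 2 lower (Gja1 and Agt), each 5.3%, against 5.04% and 8.3%. Between NG-KO and WT mice 0 were higher and 2 lower (Gja1 and S100b, 5.3%), against 4.2% and 6.66%. Between AG-KO and NG-KO mice 5 were higher (Aqp4, Kcnj10, Hepacam, Aldh1l1 and Acsbg1) and 1 lower (Agt). These are 13.2% and 2.6%, against 3.46% and 3.31%. As above, the tested genes mostly had lower levels than the 38, and genes of similar level were not compared. With 3 mice against 3, the smallest exact two-sided permutation p for a single gene is 0.1, with 4 against 3 it is 0.0571, and with 4 against 4 it is 0.0286, so groups that do not overlap reach that value and no lower one.

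The genes of water, potassium and ion handling held the only called member. Kcnj10 (ENSMUSG00000044708, chr1:172341210-172374085, forward strand, GRCm38) encodes the inward-rectifier potassium channel Kir4.1, which carries potassium into astrocytes and is also made by oligodendrocytes. It stood at 37.4, 40.5 and 33.1 FPKM in Δ3102 mice, 53.7, 39.5, 52.4 and 53.2 FPKM in AG-KO mice, 33.5, 29.9, 31.6 and 27.0 FPKM in NG-KO mice and 31.7, 37.1 and 33.4 FPKM in WT mice. Every AG-KO mouse lay above every NG-KO and every WT mouse, with AG-KO replicate 2 well below the rest of its group and below 1 of the Δ3102 mice. The log2 fold change was 0.72 ± 0.12 (SE) in AG-KO against NG-KO mice (1.65-fold, adjusted p = 0.037, edgeR) and 0.58 ± 0.13 in AG-KO against WT mice (1.49-fold, adjusted p = 0.118, edgeR). In Δ3102 mice it was 0.12 ± 0.13 and in NG-KO mice −0.15 ± 0.12 against WT mice, neither past an unadjusted p of 0.05, and the value of NG-KO mice reached 0.14 among its 26 alternatives.

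The call for Kcnj10 was not firm. It was lost when any 1 of 9 libraries was left out (WT replicates 1 and 3, Δ3102 replicate 1, AG-KO replicates 1, 3 and 4, NG-KO replicates 2, 3 and 4), with adjusted p from 0.0553 to 0.12 in edgeR, and kept without each of the other 5, with log2 fold changes from 0.66 to 0.83 over all 14 fits. Without AG-KO replicate 2, the low one, adjusted p was 0.00262 in edgeR, and Kcnj10 and Acsbg1 were also called in AG-KO against WT mice (adjusted p = 0.0262 and 0.0491). Over all 26 alternatives the adjusted p for AG-KO against NG-KO mice ran from 8.02e-06 in DESeq2 to 0.706 with the summed oligodendrocyte markers as a covariate, an alternative added after the data were seen, which gave a log2 fold change of 0.46.

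Oligodendrocyte markers moved with the same comparison. All 8 were higher in AG-KO than in NG-KO mice at an unadjusted p under 0.05, with a median log2 fold change of 0.80, all 8 were lower in NG-KO than in WT mice (median −1.03), and 0 of 8 differed at that p between AG-KO and WT mice (median −0.16), although 0 of 8 passed the adjusted threshold in edgeR in any of these. DESeq2 called 3 of 8 between AG-KO and NG-KO mice and 5 of 8 between NG-KO and WT mice. No marker was at 0 in any mouse. WT replicate 2 had the highest summed markers of all, 929 FPKM, with 37.1 FPKM of Kcnj10, whereas 3 AG-KO mice with 525 to 749.7 FPKM of the markers had 52.4 FPKM or more of Kcnj10. AG-KO replicate 2, with 405 FPKM of the markers, had 39.5 FPKM. Beyond the fit with the covariate, the part of oligodendrocyte RNA in the difference in Kcnj10 was not tested.

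**Figure D2:**
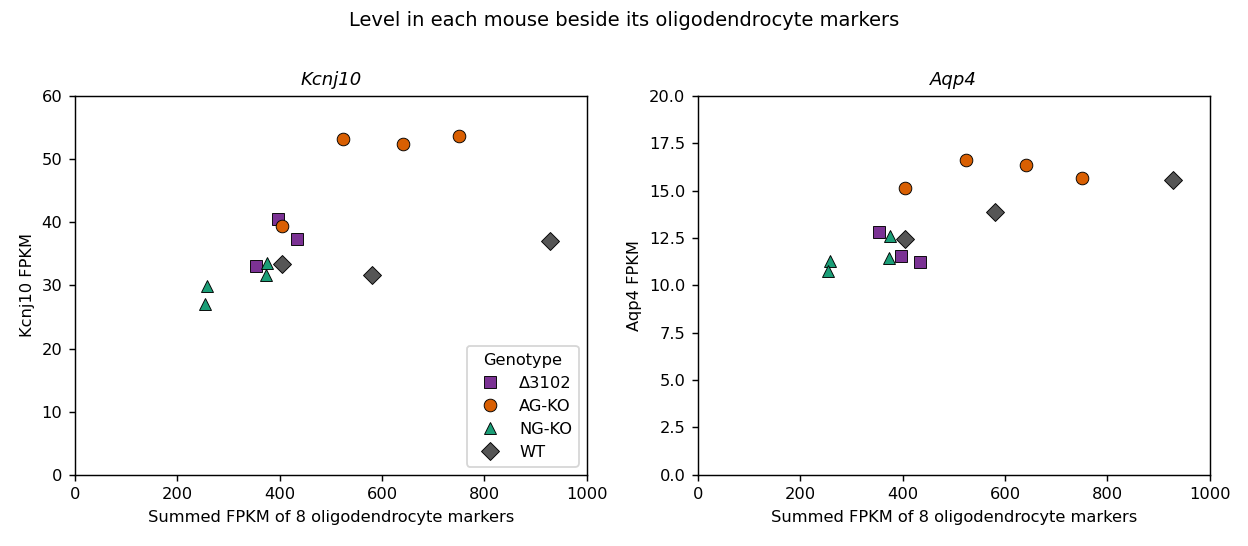
FPKM of Kcnj10 (left) and Aqp4 (right) on the y axis against the summed FPKM of 8 oligodendrocyte markers on the x axis, with 1 point per mouse and the marker shape giving the genotype. The 3 highest AG-KO points of Kcnj10 stand at 52.4 to 53.7 FPKM, while the WT mouse with the most oligodendrocyte RNA, 929 FPKM, has 37.1 FPKM of Kcnj10.

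Aqp4, the water channel of astrocyte endfeet, had 11.2, 11.5 and 12.8 FPKM in Δ3102 mice, 15.7, 15.2, 16.4 and 16.6 FPKM in AG-KO mice, 12.6, 11.3, 11.5 and 10.8 FPKM in NG-KO mice and 13.9, 15.6 and 12.5 FPKM in WT mice. AG-KO and NG-KO mice did not overlap, and WT mice lay between them and overlapped with both. The log2 fold change was 0.49 ± 0.09 (SE) in AG-KO against NG-KO mice (adjusted p = 0.0597 in edgeR, 0.000405 in DESeq2, and up to 0.718 over its 26 alternatives, at the highest with the oligodendrocyte covariate). Against WT mice it was 0.22 ± 0.10 in AG-KO, −0.24 ± 0.10 in Δ3102 and −0.27 ± 0.09 in NG-KO mice, each past an unadjusted p of 0.05 and none past the adjusted threshold in edgeR or DESeq2. With Alb as a covariate the value for AG-KO against WT mice was 0.04. With the summed oligodendrocyte markers as a covariate it was −0.11 in Δ3102 and −0.08 in NG-KO mice against WT mice, and the part of oligodendrocyte RNA in these differences was not tested further. Hepacam, an adhesion protein that anchors Mlc1 and chloride channels in the endfoot membrane, had 28.7, 29.5 and 28.8 FPKM in Δ3102 mice, 33.1, 30.5, 35.5 and 34.0 FPKM in AG-KO mice, 30.2, 29.7, 28.3 and 26.0 FPKM in NG-KO mice and 28.2, 32.0 and 32.6 FPKM in WT mice. AG-KO and NG-KO mice narrowly did not overlap, and the log2 fold change of 0.24 ± 0.08 had an adjusted p of 0.215 (edgeR). Mlc1 itself and the bicarbonate cotransporter Slc4a4 had log2 fold changes of 0.14 and 0.10 in the same comparison, so the 5 genes of this role were all above 0 there, with a median of 0.24.

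**Figure D3:**
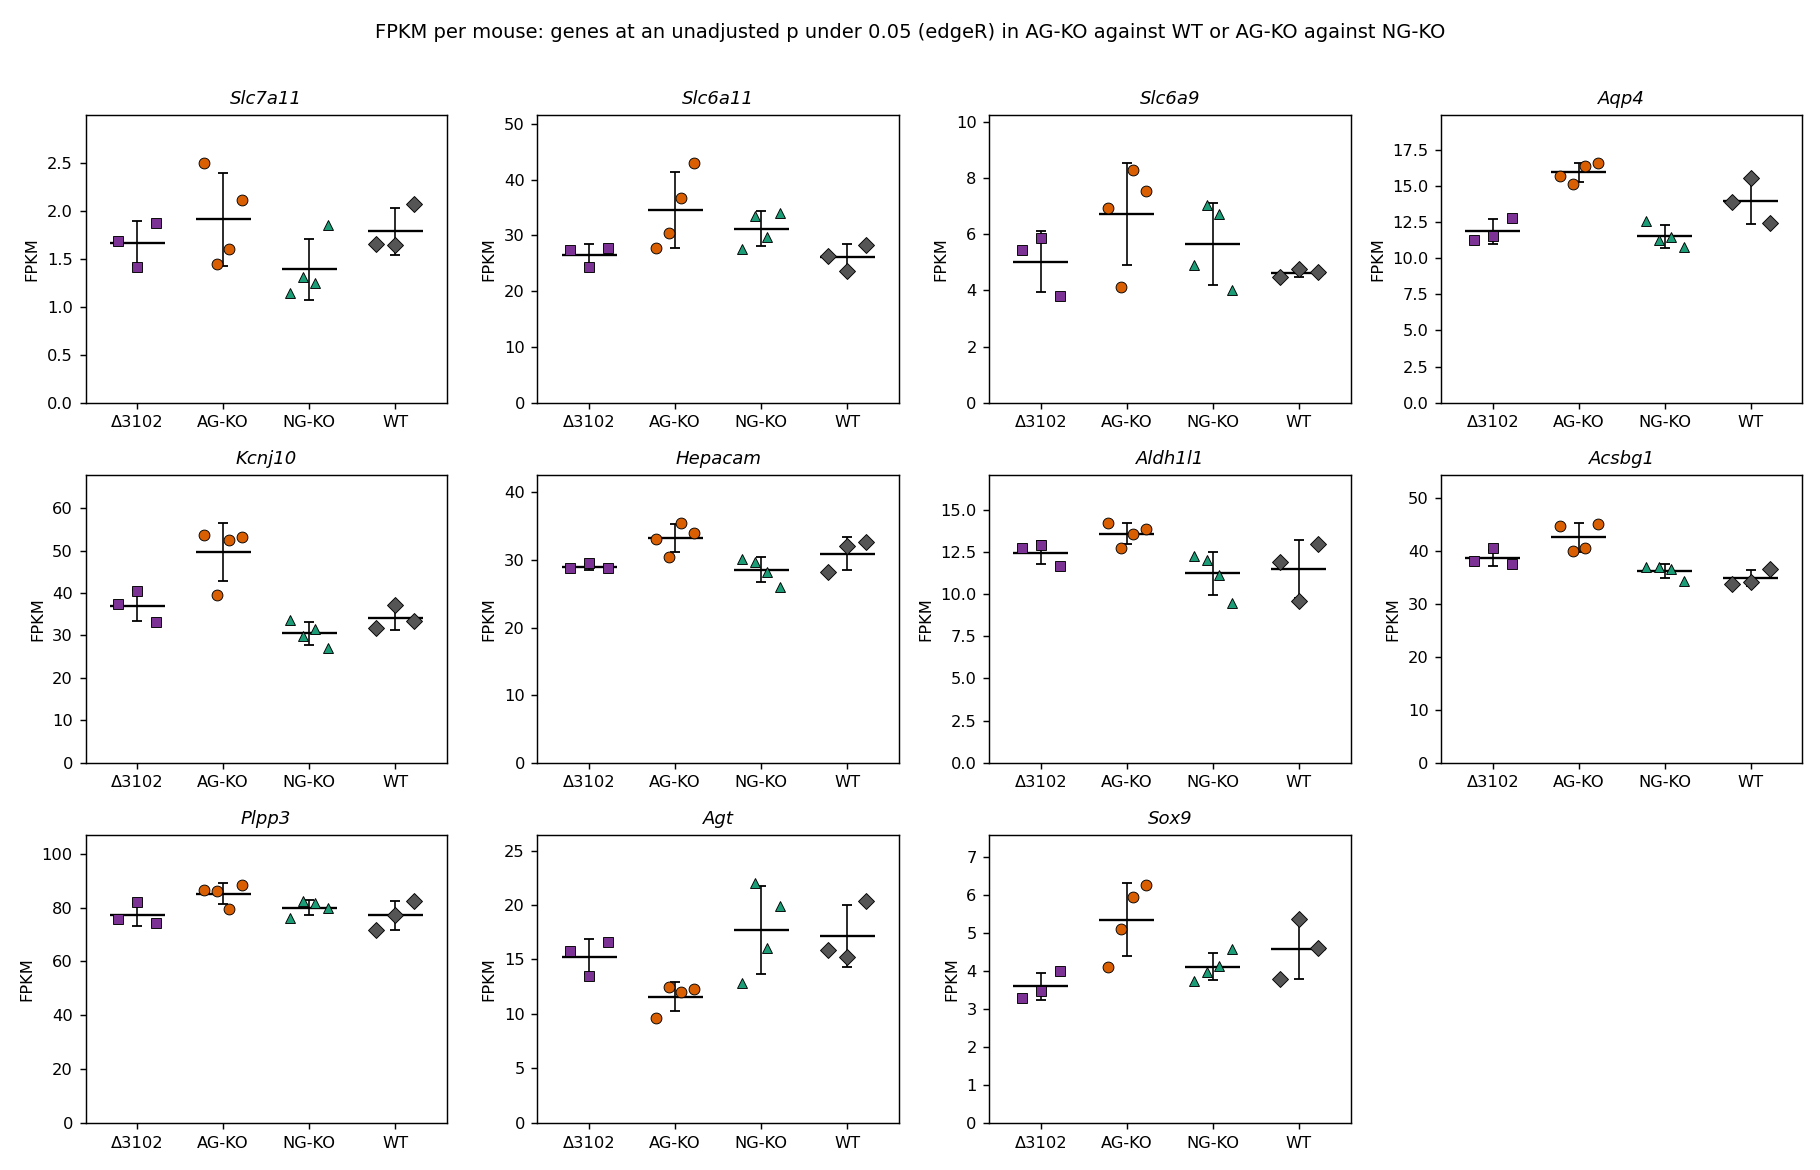
FPKM (y axis, starting at 0) in each mouse for the 11 genes at an unadjusted p under 0.05 in AG-KO against WT or AG-KO against NG-KO mice, with points for mice, horizontal lines for genotype means and bars for the SD. Kcnj10, Aqp4, Hepacam, Aldh1l1 and Acsbg1 of AG-KO mice lie above all NG-KO mice, Agt lies below them, and the other 5 genes overlap between those groups.

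Among the transporters of glutamate and other amino acids, the genotype means of the main glutamate transporters lay within the range of the WT mice. Slc1a2, the glutamate transporter GLT-1 that clears most synaptic glutamate, averaged 112 ± 11.4 FPKM in Δ3102 mice, 119 ± 17.3 FPKM in AG-KO mice, 105 ± 9.51 FPKM in NG-KO mice and 106 ± 29.5 FPKM in WT mice (SD, n = 3, 4, 4 and 3). The 3 WT mice alone spanned 74.4 to 133 FPKM, wider than any difference between genotype means. Slc1a3, the transporter GLAST, averaged 34.3 ± 1.25 FPKM in Δ3102, 34.3 ± 3.35 FPKM in AG-KO, 33.0 ± 2.12 FPKM in NG-KO and 34.3 ± 3.13 FPKM in WT mice, and its 4 log2 fold changes lay between −0.04 and 0.07. Their 95% confidence intervals against WT mice excluded changes beyond −0.38 and 0.58 log2 units for Slc1a2 and beyond −0.21 and 0.20 for Slc1a3. Glul had 501, 518 and 557 FPKM in Δ3102 mice, 515, 491, 478 and 467 FPKM in AG-KO mice, 479, 466, 469.9 and 406 FPKM in NG-KO mice and 501, 443 and 488 FPKM in WT mice. The lowest Δ3102 mouse was level with the highest WT mouse, with a log2 fold change of 0.14 ± 0.07 (SE) and an unadjusted p of 0.0796 in edgeR, and the exact two-sided permutation p was 0.1, the smallest possible. A microRNA gene, Mir8114, lies within Glul on the same strand, and reads of the locus could be split between them.

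The transporters of the inhibitory transmitters GABA and glycine had the highest fold changes of this role in AG-KO against WT mice. Slc6a11, the GABA transporter GAT-3 of astrocytes, had 27.4, 24.3 and 27.8 FPKM in Δ3102 mice, 27.8, 30.5, 36.8 and 43.0 FPKM in AG-KO mice, 27.5, 33.5, 29.8 and 34.1 FPKM in NG-KO mice and 26.4, 23.6 and 28.3 FPKM in WT mice. AG-KO mice overlapped with WT mice through replicate 1 only, and the log2 fold change was 0.44 ± 0.15 (SE) with an adjusted p of 0.214 (edgeR), against 0.27 ± 0.15 in NG-KO and 0.03 ± 0.15 in Δ3102 mice. AG-KO replicates 3 and 4 lay above all other mice, and the AG-KO value went down to 0.16 over its 26 alternatives. Slc6a9, the glycine transporter GlyT1, varied widely within the knockouts, with 5.44, 5.85 and 3.79 FPKM in Δ3102 mice, 6.95, 4.11, 8.29 and 7.53 FPKM in AG-KO mice, 4.89, 7.05, 6.73 and 4.01 FPKM in NG-KO mice, and 4.46, 4.77 and 4.66 FPKM in WT mice. Its log2 fold changes against WT mice were 0.57 ± 0.25 in AG-KO (adjusted p = 0.326, edgeR), 0.31 ± 0.25 in NG-KO and 0.12 ± 0.27 in Δ3102 mice. Slc6a9 overlaps B4galt2 and Ccdc24 on the other strand, and whether the counting used strand is not given in the sources used here.

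The remaining members of this role carry other amino acids. Slc7a11 had 1.69, 1.42 and 1.88 FPKM in Δ3102 mice, 2.50, 1.44, 1.60 and 2.11 FPKM in AG-KO mice, 1.147, 1.31, 1.24 and 1.85 FPKM in NG-KO mice and 1.65, 1.64 and 2.07 FPKM in WT mice. Its log2 fold change was 0.48 ± 0.18 (SE) in AG-KO against NG-KO mice, where the groups overlapped (adjusted p = 0.271, edgeR), and −0.35 ± 0.20 in NG-KO against WT mice, among the lowest of that comparison. Slc7a10, the serine transporter Asc-1 of astrocytes, had log2 fold changes between −0.10 and 0.05 in the 4 comparisons, and it overlaps Lrp3 on the other strand.

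The gap junction genes held a small difference with little spread. Gja1 (ENSMUSG00000050953, chr10:56377330-56402513, forward strand), which encodes connexin 43, had 15.1, 16.2 and 16.7 FPKM in Δ3102 mice, 16.5, 16.8, 17.1 and 16.4 FPKM in AG-KO mice, 16.8, 16.0, 16.7 and 15.7 FPKM in NG-KO mice and 18.5, 17.9 and 18.1 FPKM in WT mice. All 11 knockout mice lay below all 3 WT mice, which are the same controls in each comparison, so the 3 comparisons are not independent. The share of all tested genes with this pattern was not counted. The log2 fold change was −0.18 ± 0.06 (SE) in Δ3102, −0.09 ± 0.06 in AG-KO and −0.15 ± 0.06 in NG-KO mice, with adjusted p of 0.9997, 0.498 and 0.489 in edgeR, and its confidence intervals reached no further than −0.32. Between AG-KO and NG-KO mice it was 0.05 ± 0.06. Gja1 also had the smallest spread of the 38 genes within genotypes. Gjb6, which encodes connexin 30, overlapped in all comparisons, with 22.0, 21.9 and 26.8 FPKM in Δ3102 mice, 20.4, 18.1, 18.2 and 19.0 FPKM in AG-KO mice, 23, 24.1, 15.6 and 20.8 FPKM in NG-KO mice and 19.4, 15.4 and 24.9 FPKM in WT mice, and its log2 fold change of 0.25 ± 0.17 in Δ3102 mice was among the highest there.

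**Figure D4:**
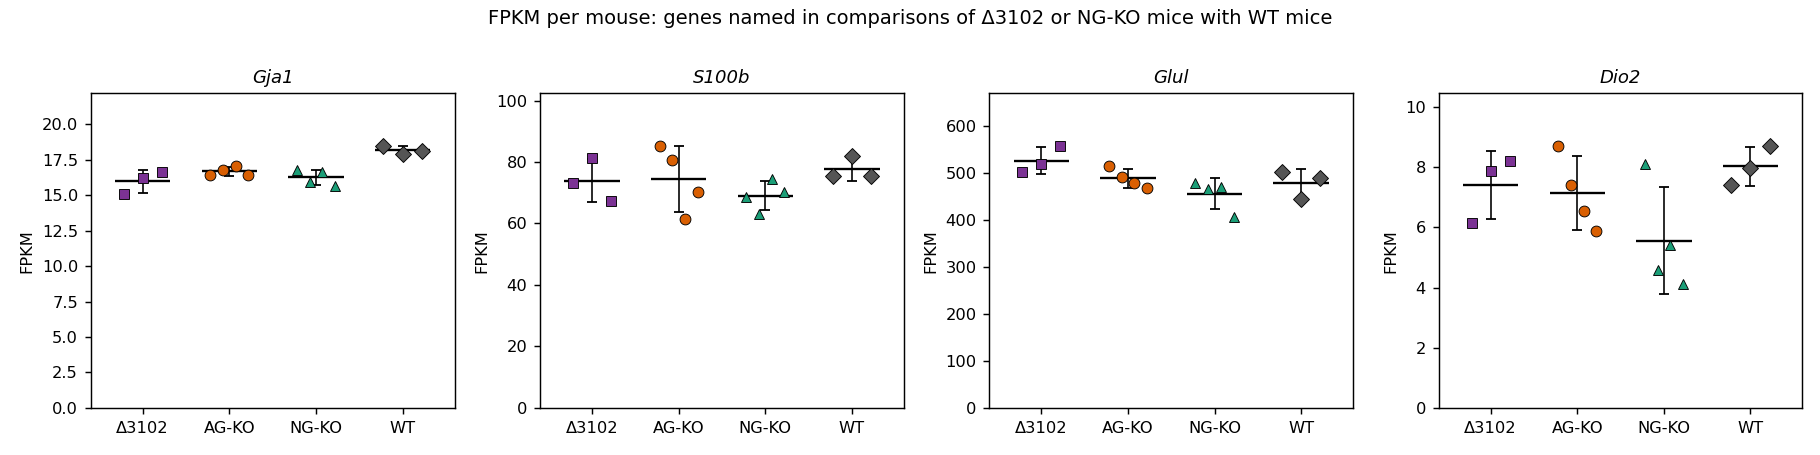
FPKM (y axis, starting at 0) in each mouse for Gja1, S100b, Glul and Dio2, with points for mice, horizontal lines for genotype means and bars for the SD. The 11 knockout mice have 15.1 to 17.1 FPKM of Gja1, below the 17.9 to 18.5 FPKM of the 3 WT mice, and Dio2 is at 4.12 to 5.41 FPKM in 3 of 4 NG-KO mice.

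Of the 9 metabolic genes, 3 read higher in AG-KO than in WT mice at an unadjusted p under 0.05. Acsbg1 (ENSMUSG00000032281, chr9:54604877-54661870, reverse strand), an acyl-CoA synthetase that activates long-chain fatty acids, had 38.1, 40.5 and 37.5 FPKM in Δ3102 mice, 44.8, 39.9, 40.5 and 45.0 FPKM in AG-KO mice, 37.0, 36.9, 36.6 and 34.3 FPKM in NG-KO mice and 33.8, 34.1 and 36.7 FPKM in WT mice. AG-KO mice lay above all NG-KO and all WT mice, and Δ3102 mice lay above all WT mice. The log2 fold change was 0.32 ± 0.07 (SE) in AG-KO against WT mice (1.25-fold, adjusted p = 0.118 in edgeR, 0.00345 in DESeq2 and up to 0.437 over 26 alternatives) and 0.25 ± 0.06 in AG-KO against NG-KO mice (adjusted p = 0.135 in edgeR, 0.0196 in DESeq2 and up to 0.723). In Δ3102 mice it was 0.15 ± 0.07, with an adjusted p of 0.9997 in edgeR.

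Aldh1l1, the folate enzyme widely used as an astrocyte marker, had 12.8, 12.9 and 11.7 FPKM in Δ3102 mice, 14.2, 12.7, 13.5 and 13.9 FPKM in AG-KO mice, 12.3, 12.01, 11.2 and 9.47 FPKM in NG-KO mice and 11.9, 9.58 and 13.0 FPKM in WT mice. AG-KO and NG-KO mice did not overlap and both overlapped with WT mice, and the log2 fold change was 0.29 ± 0.11 (SE) in AG-KO against NG-KO mice and 0.27 ± 0.11 in AG-KO against WT mice (adjusted p = 0.254 and 0.306, edgeR). Plpp3, a lipid phosphate phosphatase, had 75.9, 81.9 and 74.2 FPKM in Δ3102 mice, 86.4, 86.2, 79.4 and 88.5 FPKM in AG-KO mice, 76.1, 82.4, 81.8 and 79.7 FPKM in NG-KO mice and 71.6, 77.2 and 82.5 FPKM in WT mice, with a log2 fold change of 0.17 ± 0.07 in AG-KO against WT mice (adjusted p = 0.26, edgeR). AG-KO replicate 3 alone overlapped with the WT mice.

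Dio2, the deiodinase that makes active thyroid hormone in astrocytes, was the metabolic gene furthest below WT. It had 6.14, 7.87 and 8.22 FPKM in Δ3102 mice, 8.71, 7.41, 6.56 and 5.87 FPKM in AG-KO mice, 8.10, 4.58, 5.41 and 4.12 FPKM in NG-KO mice and 7.41, 7.98 and 8.69 FPKM in WT mice. NG-KO replicate 1 was at the WT level and replicates 2, 3 and 4 were below all WT mice, and the log2 fold change was −0.52 ± 0.20 (SE, adjusted p = 0.47, edgeR). Entpd2, which overlaps Npdc1 on the same strand, had 3.28, 3.55 and 3.07 FPKM in Δ3102 mice, 3.66, 2.98, 3.47 and 4.08 FPKM in AG-KO mice, 3.05, 4.59, 2.07 and 2.98 FPKM in NG-KO mice and 3.61, 3.04 and 4.51 FPKM in WT mice. NG-KO mice alone spanned the values of all the others. Cbs had 4.07, 4.65 and 4.19 FPKM in Δ3102 mice, 4.38, 3.65, 4.10 and 4.02 FPKM in AG-KO mice, 3.42, 3.62, 2.93 and 3.99 FPKM in NG-KO mice and 4.27, 3.26 and 4.36 FPKM in WT mice, with groups that overlapped. The glycolytic enzyme Aldoc, the glycogen regulator Ppp1r3c and the lipase Pla2g7 had log2 fold changes between −0.10 and 0.12 in the 4 comparisons. Pla2g7 nevertheless split the AG-KO mice, at 66.2, 64.0, 48.8 and 49.8 FPKM. Replicates 3 and 4 lay below all other mice and replicate 1 above them.

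The metallothioneins, small cysteine-rich proteins that bind zinc and copper, split the AG-KO group. Of their genes, Mt1 and Mt2 are known to respond to metals and glucocorticoids. Mt1, Mt2 and Mt3 lie on chromosome 8 within 27721 bases (GRCm38). Mt1 had 88.7, 104 and 98.8 FPKM in Δ3102 mice, 127, 114, 67.7 and 67.0 FPKM in AG-KO mice, 115, 128, 100 and 118 FPKM in NG-KO mice and 105, 93.5 and 111 FPKM in WT mice. Mt2 had 129, 183 and 150 FPKM in Δ3102 mice, 234, 195, 101 and 77.5 FPKM in AG-KO mice, 190, 248, 182 and 204 FPKM in NG-KO mice and 183, 137 and 187 FPKM in WT mice. Mt3 had 290, 323 and 302 FPKM in Δ3102 mice, 356, 321, 189 and 190 FPKM in AG-KO mice, 296, 300, 299 and 295 FPKM in NG-KO mice and 307, 299 and 286 FPKM in WT mice. For each of the 3 genes, AG-KO replicates 3 and 4 were the lowest of all 14 mice, and AG-KO replicate 1 was the highest or the second highest. The genotype means do not show this split, and the log2 fold changes of AG-KO against WT mice were −0.11 ± 0.18, −0.14 ± 0.29 and −0.15 ± 0.17 (SE) for Mt1, Mt2 and Mt3, with adjusted p of 0.826, 0.871 and 0.72 in edgeR. Without AG-KO replicates 3 and 4, Mt3 was at 0.19 in the same comparison, and over their 26 alternatives Mt1 and Mt2 reached 0.23 and 0.41.

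The same replicates differed in other measures. F3, which encodes tissue factor, the starter of blood coagulation that astrocytes express, had 20.6 and 20.1 FPKM in AG-KO replicates 1 and 2 and 12.7 and 13.8 FPKM in replicates 3 and 4, against 18.9, 19.9 and 21.3 FPKM in Δ3102 mice, 15.7, 14.2, 15.4 and 16.5 FPKM in NG-KO mice and 17.4, 17.2 and 16.4 FPKM in WT mice. Replicates 3 and 4 were again the lowest of the 14, and all Δ3102 mice lay above all WT mice (log2 fold change 0.24 ± 0.15, SE, adjusted p = 0.9997, edgeR). AG-KO replicates 3 and 4 were also lowest for Pla2g7. For Slc6a11, Slc6a9, Sox9, Aqp4 and Hepacam they lay above all other mice instead. Alb was at the floor of the table in AG-KO replicates 3 and 4, but stood at only 1.12 FPKM in AG-KO replicate 2 and 1.11 FPKM in Δ3102 replicate 3, where Mt3 was 321 and 302 FPKM. The TMM scaling factors of AG-KO replicates 3 and 4, 0.966 and 0.969, were the lowest, and their total counts, 44527024 and 55655743, were not both low. The labels give no batch for these mice, and the part of these measures in the split was not tested. The fourth gene of this role, the zinc transporter Slc39a12, did not follow, with 22.2, 16.1, 16.5 and 16.6 FPKM in AG-KO mice and 14.1, 16.6 and 19.2 FPKM in WT mice.

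**Figure D5:**
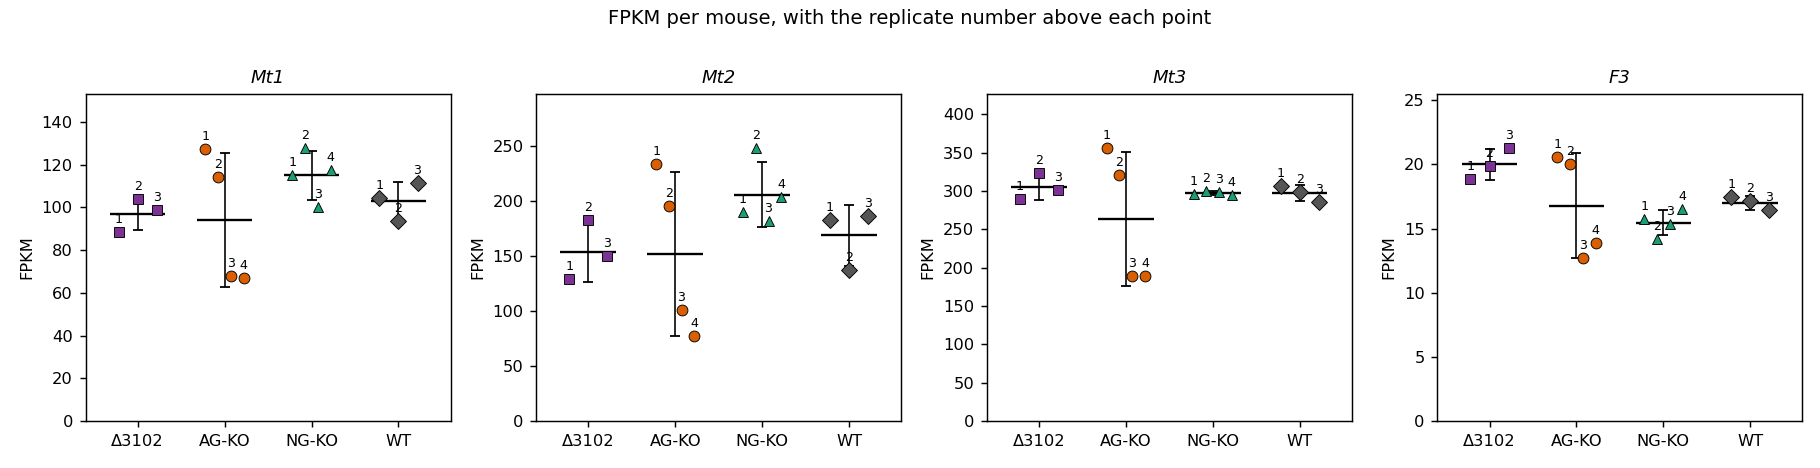
FPKM (y axis, starting at 0) of Mt1, Mt2, Mt3 and F3 in each mouse, with the replicate number above each point, horizontal lines for genotype means and bars for the SD. AG-KO replicates 3 and 4 are the lowest of all 14 mice in each panel, at 67.7 and 67.0 FPKM for Mt1 and 189 and 190 FPKM for Mt3.

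Because the 3 metallothioneins moved together between these mice, their promoters are shown, as RefSeq gives them on GRCm38.p6, from 250 bases before to 50 bases after the annotated start, on the gene strand. Capitals mark the core of the metal response element, searched as TGCACNC and TGCGCNC on both strands.
Mt1: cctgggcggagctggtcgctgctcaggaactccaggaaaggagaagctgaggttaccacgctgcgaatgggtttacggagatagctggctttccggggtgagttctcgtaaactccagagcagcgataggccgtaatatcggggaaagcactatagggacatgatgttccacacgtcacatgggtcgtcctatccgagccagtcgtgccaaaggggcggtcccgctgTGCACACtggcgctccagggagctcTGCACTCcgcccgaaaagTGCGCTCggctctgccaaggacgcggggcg
Mt2: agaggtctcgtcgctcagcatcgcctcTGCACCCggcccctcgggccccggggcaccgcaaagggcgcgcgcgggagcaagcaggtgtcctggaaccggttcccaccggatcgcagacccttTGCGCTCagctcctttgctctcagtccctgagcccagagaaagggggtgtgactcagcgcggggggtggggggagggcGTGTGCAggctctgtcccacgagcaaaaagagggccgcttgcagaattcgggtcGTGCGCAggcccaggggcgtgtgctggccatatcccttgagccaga
Mt3: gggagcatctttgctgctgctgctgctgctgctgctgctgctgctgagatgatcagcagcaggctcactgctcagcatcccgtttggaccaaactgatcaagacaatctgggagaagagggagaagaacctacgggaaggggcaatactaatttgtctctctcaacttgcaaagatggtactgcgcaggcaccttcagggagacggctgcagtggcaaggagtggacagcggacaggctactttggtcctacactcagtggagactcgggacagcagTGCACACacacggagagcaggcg
These windows are chr8:94178839-94179138 for Mt1, chr8:94172368-94172667 for Mt2 and chr8:94152357-94152656 for Mt3, all on the forward strand. The Mt1 window held 3 matches, the Mt2 window 4, of which 2 on the other strand, and the Mt3 window 1. Of 32851 promoter windows of the same length in the table, 25.7% held at least 1 match, 1.97% at least 3 and 0.518% at least 4. A match in letters is a description of the sequence and shows no binding.

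Among the secreted and matrix proteins, Agt alone passed an unadjusted p of 0.05, in AG-KO against WT and AG-KO against NG-KO mice. Agt (ENSMUSG00000031980, chr8:124556534-124569706, reverse strand) encodes angiotensinogen, the precursor of angiotensin, which astrocytes and liver cells make. It had 15.8, 13.5 and 16.6 FPKM in Δ3102 mice, 9.65, 12.4, 12 and 12.3 FPKM in AG-KO mice, 12.9, 22.0, 16.1 and 19.9 FPKM in NG-KO mice and 15.9, 15.2 and 20.4 FPKM in WT mice. Every AG-KO mouse lay below every other mouse. The log2 fold change was −0.59 ± 0.16 (SE) in AG-KO against NG-KO mice (0.665-fold, adjusted p = 0.16 in edgeR, 0.0344 in DESeq2 and up to 0.845 over 26 alternatives) and −0.53 ± 0.17 in AG-KO against WT mice (0.693-fold, adjusted p = 0.21 in edgeR and 0.103 in DESeq2). Hepatocyte markers were low in AG-KO mice too: 10 of 14 were lower than in WT mice at an unadjusted p under 0.05 (0 past the adjusted threshold in edgeR, 1 in DESeq2), with a median log2 fold change of −3.76 and summed levels of 102 to 355 FPKM in AG-KO mice and 633 to 668 FPKM in WT mice. Over the same 14 markers the median was −1.72 in AG-KO against NG-KO mice, with 1 higher (Trf) and 1 lower (Apoh) at that p, although the summed levels of NG-KO mice, 63.5 to 266.8 FPKM, overlapped with those of AG-KO mice. The sums include Ttr, which the choroid plexus also makes and which gave 233.7 of the 332.6 FPKM of AG-KO replicate 3. They also include Trf, with log2 fold changes of −0.63 in NG-KO against WT and 0.64 in AG-KO against NG-KO mice. Both had the sign of the oligodendrocyte marker medians, −1.03 and 0.80. How much RNA of other cells the sums hold was not tested. Alb was at 44.8 and 1.12 FPKM in AG-KO replicates 1 and 2 and at the floor in replicates 3 and 4, against 2.00, 55.8, 41.7 and 49.6 FPKM in NG-KO mice and 167, 126 and 165 FPKM in WT mice. Δ3102 replicate 3 had 1.11 FPKM of Alb and 16.6 FPKM of Agt. With Alb as a covariate the log2 fold change of Agt in AG-KO against WT mice was −0.63. With the summed oligodendrocyte markers as a covariate it was −0.57 there, but −0.18 in AG-KO against NG-KO mice. Beyond these fits, the part of RNA from other cells in the difference in Agt was not tested.

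The other secreted proteins overlapped between the groups, apart from F3. Sparcl1 had 734, 743 and 696 FPKM in Δ3102 mice, 738, 696, 619 and 700.1 FPKM in AG-KO mice, 652, 722, 637 and 675 FPKM in NG-KO mice and 692, 630 and 789 FPKM in WT mice, with log2 fold changes between −0.06 and 0.05. Clu, which encodes clusterin, a lipid-binding chaperone, averaged 264 ± 9.503 FPKM in Δ3102, 262 ± 15.9 FPKM in AG-KO, 254 ± 15.8 FPKM in NG-KO and 284 ± 25.4 FPKM in WT mice, and its intervals against WT mice went no lower than −0.31. Mfge8, a bridging protein in the uptake of dying cells, ranged from 16.6 to 36.1 FPKM within AG-KO mice alone, and its fold change had another sign under at least 1 alternative in each of the 4 comparisons. The protease Htra1 and the hyaluronan-binding protein Itih3 had log2 fold changes between −0.08 and 0.16, and Htra1 overlaps Fgfr2 on the other strand.

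The identity genes, receptors and S100b showed no called difference. Sox9, the transcription factor that sets astrocyte identity, had 3.30, 3.48 and 4.004 FPKM in Δ3102 mice, 4.12, 5.10, 5.96 and 6.26 FPKM in AG-KO mice, 3.74, 3.97, 4.15 and 4.58 FPKM in NG-KO mice and 3.78, 5.37 and 4.62 FPKM in WT mice. AG-KO mice overlapped with NG-KO mice through replicate 1 only, with a log2 fold change of 0.41 ± 0.15 (SE, adjusted p = 0.261, edgeR), and Δ3102 mice overlapped with WT mice, at −0.35 ± 0.18, the lowest of that comparison. Fgfr3, a fibroblast growth factor receptor, was the highest in Δ3102 against WT mice, at 0.31 ± 0.16, with 11.2, 8.64 and 12.2 FPKM in Δ3102 mice, 7.83, 7.40, 8.90 and 9.67 FPKM in AG-KO mice, 8.27, 10.3, 7.60 and 7.77 FPKM in NG-KO mice and 8.62, 7.47 and 9.86 FPKM in WT mice, which overlapped. S100b, a calcium-binding protein, had 73.1, 81.2 and 67.4 FPKM in Δ3102 mice, 85.3, 80.6, 61.5 and 70.3 FPKM in AG-KO mice, 68.5, 63.1, 74.4 and 70.4 FPKM in NG-KO mice and 75.5, 82.0 and 75.5 FPKM in WT mice. NG-KO mice lay below all WT mice, at a log2 fold change of −0.16 ± 0.10 (adjusted p = 0.686, edgeR), and it overlaps Dip2a on the other strand. The neurotensin receptor Ntsr2 spanned 19.2 to 39.6 FPKM within NG-KO mice, and its log2 fold changes ran from 0.01 to 0.18.

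A second list of 31 other astrocyte genes, which are not among the 38, had 0 called in any comparison by edgeR, and 2 in AG-KO against WT (Apoe and Pygb) and 1 in AG-KO against NG-KO mice (Megf10) by DESeq2. At an unadjusted p under 0.05, 7 were higher and 3 lower in AG-KO than in WT mice, and 7 were higher and 1 lower in AG-KO than in NG-KO mice. The 7 higher in AG-KO than in WT mice included the receptor Gpr37l1 (log2 fold change 0.28 ± 0.08, SE). Apoe, the main lipid carrier of the brain, lay below all WT mice in all 11 knockout mice, with 335 to 457 FPKM in them and 471 to 504 FPKM in WT mice, like Gja1, against the same 3 controls. How many of all tested genes share this pattern was not counted. Of 18 tested markers of reactive astrocytes, 3 were higher and 3 lower in AG-KO than in WT mice, and 5 higher and 0 lower in AG-KO than in NG-KO mice, at an unadjusted p under 0.05, and 0 were called by edgeR, while DESeq2 called 3 in the second comparison (Gfap, S1pr3 and Serpina3n). Gfap averaged 109.7 ± 11.9 FPKM in AG-KO mice, 81.05 ± 14.85 FPKM in NG-KO mice and 106.5 ± 11.59 FPKM in WT mice (SD, n = 4, 4 and 3).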

How the data were processed

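The authors prepared stranded, paired-end poly(A) libraries. Per the labels' processing notes, cutadapt 1.9, HISAT2 2.0.4, UMI-tools, StringTie 1.3.4d, DESeq2 and edgeR were used on mouse build GRCm38, and the gene IDs are those of GENCODE. The authors deposited FPKM values from StringTie, with 0.0001 in place of no signal, and read counts per gene, not normalized, in 1 table for all 14 libraries. The program and strand setting behind the counts are not given in the sources used here. Of the 38 genes, 17 overlap another annotated gene, and 7 overlap one of 1 FPKM or more on average.

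Levels are given in FPKM as deposited. Counts were tested with edgeR 4.0.16 (quasi-likelihood, TMM scaling, 1 mean per genotype, all 14 libraries in 1 fit, R 4.3.3) after keeping genes of at least 0.5 FPKM in at least 3 libraries, with Benjamini-Hochberg adjustment over 18059 genes and a threshold of 0.05. The SE is the log2 fold change over the square root of the F statistic. Exact two-sided permutation tests (SciPy 1.17.1) compared the mean FPKM of single genes. Alternatives were DESeq2 1.42.0, limma 3.58.1 on log2(FPKM + a pseudocount of 0.1, 1 or 0.01), other scaling and filters, covariates, a replicate block and leaving out libraries. Each library is labelled as a separate replicate, 0 of 91 pairs of libraries were identical, and p-values measure the spread between these samples only. The tests were checked on simulated data.

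The 38 genes and all marker lists were chosen with earlier results of these data known. Any member could be named, and those at an unadjusted p under 0.05, without overlap between groups, with the 2 largest fold changes in each direction or with the 3 highest and 3 lowest WT levels are given for every mouse. Genes outside the 38 come from the marker lists, apart from Gper1 and the genes in the closing section that are named as chosen after their values were seen. Promoters came from RefSeq (GRCm38.p6), where 34 of the 38 genes matched.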

Additional observations from a re-analysis of the deposited data

Results flagged for a closer look

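In 5 of the 76 groups of 4 mice examined, 1 mouse lay far from the others of its genotype. Chance alone gives about 1 in 20, which is close to this share. The groups are the 38 genes in the same 4 AG-KO and 4 NG-KO mice, so they are not independent. All 5 cases were in AG-KO mice. AG-KO replicate 2 stood apart for Kcnj10, with 39.47 FPKM against 52.4 to 53.7 FPKM in the rest of its group, and for the serine transporter Slc7a10, with 12.23 FPKM. AG-KO replicate 1 stood apart for the zinc transporter Slc39a12, with 22.18 FPKM, and for Agt, with 9.651 FPKM, the lowest value of that gene in any mouse. AG-KO replicate 4 stood apart for Itih3, with 7.852 FPKM. Groups of 3 were not examined in this way.

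Kcnj10 differed between the conditional knockouts, at a log2 fold change of 0.7227 in AG-KO against NG-KO mice, with all 4 AG-KO mice above all 4 NG-KO mice (edgeR, adjusted p = 0.037). Since both lines were set against the same WT mice, this is the direct test of the difference between them.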

How the results depend on the processing

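For the 34 gene comparisons that met the naming rule by p, overlap or fold change, 26 alternatives gave 884 values, of which 858 kept their direction and side of the threshold, 14 lost the call, all for Kcnj10 in AG-KO against NG-KO mice, 9 gained one and 3 changed sign. In AG-KO against WT mice, Mt3 was 0.1847 with Alb as a covariate and 0.1885 without AG-KO replicates 3 and 4, against −0.15 with all libraries, and Mt2 in AG-KO against NG-KO mice was 0.0382 without those replicates, against −0.44, which follows from leaving out the 2 lowest mice. For the other changes the cause was not tested. Among all 152 member fold changes, 77 had another sign under 1 or more alternatives, none over 0.44 in size and 0 past an unadjusted p of 0.05 in edgeR.

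DESeq2 called 2 members in AG-KO against WT mice (0 in edgeR) and 4 in AG-KO against NG-KO mice (1 in edgeR). In the last comparison the count was 0 with only the 2 groups compared, with the replicate block, with Alb or the summed oligodendrocyte markers as a covariate, and without AG-KO replicates 3 and 4. At an unadjusted p under 0.05, the oligodendrocyte covariate left 0 members in NG-KO against WT mice (3 without it) and 5 in AG-KO against NG-KO mice (8 without it), and leaving out AG-KO replicates 3 and 4 gave 5 in Δ3102 against WT mice (2 with them). The oligodendrocyte covariate and the joint removal of those replicates were chosen after seeing the data. Shares of all tested genes were not counted for DESeq2 or for the other alternatives named here, so these member counts have no background.

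Leaving out 1 library at a time gave 0 to 3 members at an unadjusted p under 0.05 and 5 to 10 without overlap in Δ3102 against WT mice. In AG-KO against WT mice it gave 0 to 2 called, 5 to 9 at the unadjusted p and 4 to 8 without overlap, in NG-KO against WT mice 1 to 4 and 2 to 6 of the last kinds, and in AG-KO against NG-KO mice 0 to 3 called, the most without AG-KO replicate 2. A smaller group overlaps less often by construction, and the shares of all tested genes in these fits were not counted.

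Replicate numbers did not pair the mice: deviations of 19 same-numbered pairs correlated at −0.22 to 0.18, with 3 above 0.1, against −0.29 to 0.29 for 54 other pairs, and 2 libraries correlated best with their own number. With the replicate block, Kcnj10 in AG-KO against NG-KO mice was 0.72 with an adjusted p of 0.162 (edgeR), and no other call changed.

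With 3 or 4 mice a group, the median SE of a member's log2 fold change was 0.12 to 0.14, so small changes could not be told from none. The WT mice serve 3 comparisons, and no Cre-only or floxed control was analysed here.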

Other observations

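AG-KO replicates 3 and 4, the mice with the least metallothionein RNA, also had the lowest levels of Tsc22d3, a gene that glucocorticoids induce, with 8.42 and 9.586 FPKM against 11.61 to 23.86 FPKM in the other 12 mice. Sgk1, a kinase gene that glucocorticoids also induce, stood at 10.18 and 10.03 FPKM in them and at 29.16 and 18.87 FPKM in AG-KO replicates 1 and 2, while 1 WT mouse had 10.4 FPKM. Fkbp5, a chaperone gene of the same kind, was at 7.604 and 5.906 FPKM in replicates 3 and 4 and at 9.481 and 8.179 FPKM in replicates 1 and 2, while NG-KO replicate 4, at 7.403 FPKM, lay below AG-KO replicate 3. Per1, a clock gene that glucocorticoids also induce, did not set both mice apart: it was at 11.92 and 9.16 FPKM in AG-KO replicates 3 and 4, against 19.47 and 16.74 FPKM in replicates 1 and 2 and 11.48, 11.03 and 12.82 FPKM in WT mice. These genes were chosen after their values were seen, and no test was made on them.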
